A study of Homo sapiens with 4 samples.

Results

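The nuclear genes of respiratory complexes II to V were followed across 4 poly-A+ RNA libraries of A549, a human epithelial line started from a lung carcinoma. Of these, WT 1 and WT 2 hold unedited cells, and clone 4 and clone 5 are NOCT-KO lines, each grown from 1 cell after lentiviral Cas9, puromycin selection and limiting dilution. NOCT encodes nocturnin, an enzyme that removes the 2′ phosphate of NADP+ and NADPH, and part of the protein goes to mitochondria. Every library came from cells grown in serum-containing medium and harvested before confluence, with no drug or time course. Whether WT cells passed through the same selection is not given in the sources used here, and nothing states that WT 1 and WT 2 were separate cultures, so p-values measure only the spread between these libraries. Genes were chosen by symbol: SDHA to SDHD, CYC1, CYCS, and names beginning with UQCR, COX and a digit, or ATP5. The rule matched 63 lines of a table of 23340 symbols, and 2 pseudogenes were left out, which left 61 genes. They comprised 4 genes of complex II, 10 of complex III, 1 for cytochrome c, 17 of complex IV with its tissue isoforms, 9 COX-named assembly factors and 16 of complex V. The other 4 carry a matching symbol without being subunits. These are ATP5S and ATP5SL, now named DMAC2L and DMAC2, the readthrough locus ATP5J2-PTCD1, and COX4NB, now named EMC8, a subunit of the endoplasmic reticulum membrane complex.

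Complexes II, III and IV pass electrons from succinate and ubiquinol through cytochrome c to oxygen, and complexes III and IV pump protons across the inner mitochondrial membrane. Complex V, the ATP synthase, lets those protons return and makes ATP. Complex II is made wholly from nuclear genes, whereas complexes III, IV and V also need subunits from the mitochondrial genome. No line of the table used here carries a mitochondrially encoded gene, so only the nuclear side of these enzymes was measured.

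Depth ranged from 36873556 to 41963070 counts per library. KRT8 and KRT18 were abundant in every library (721 to 1357 CPM, which are TMM-scaled counts per library size), CDH1 stood at 11.2 to 18.4 CPM, and KRT19 was at 0. EPCAM reached at most 0.166 CPM and the lung lineage genes NKX2-1, SFTPC and SFTPB at most 0.241 CPM. The endothelial genes PECAM1 and CDH5 and the leukocyte genes PTPRC and CD3E were at 0 in all 4 libraries, and VWF was at 0 but for 0.144 CPM in clone 5. The leukocyte list also holds CD68, a lysosomal protein that many cell types make, at 12.5 and 12.6 CPM in WT, 13.98 in clone 4 and 21.1 in clone 5; its part in the results was not tested. The fibroblast list summed to 30.1 and 24.7 CPM in WT and to 7.71 and 14.5 CPM in clones 4 and 5, nearly all of it LUM, with DCN at 0; its part in the results was not tested. NOCT stood at 20.8 and 20.1 CPM in WT 1 and WT 2, 29.3 in clone 4 and 15.6 in clone 5, so the targeted transcript was higher in clone 4 than in WT past the threshold (adjusted p = 0.0293 from edgeR). A count over the whole gene checks neither the edit nor the label.

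Which of these genes were expressed at all was read first. Of the 61 genes, 53 passed the filter on low counts, including 41 of the 48 subunit genes. The 8 that did not were COX4I2, COX6A2, COX6B2, COX7A1, COX7B2 and ATP5J2-PTCD1, each at 0 counts in all 4 libraries, COX8C at 2 counts in WT 2 alone, and ATP5L2 at 4, 2, 2 and 2 counts. If each count is a separate event, a count of 0 allows up to 3 counts, or 0.0711 to 0.0832 CPM depending on the library. As 99.1% to 99.2% of nonzero counts were even, counts may not be separate events, and the bound may be higher. COX4I2 is the lung and hypoxia-linked isoform of subunit 4, COX6A2 and COX7A1 are the heart and skeletal muscle isoforms of their subunits, and COX6B2, COX7B2 and COX8C are known from testis. Their ubiquitous partners carried the family in every library, with COX4I1 at 2910 to 4826 counts, COX6A1 at 2768 to 3558, COX6B1 at 2816 to 3560, COX7B at 1442 to 3028 and COX8A at 2010 to 3050. COX7A1 was not detected at this depth beside COX7A2 at 1430 to 1740 counts and COX7A2L, which joins complexes III and IV into supercomplexes, at 9732 to 12078 counts.

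Levels between genes were compared as CPM per kb of annotated mRNA, taken as the median length of protein-coding transcripts. The catalytic β subunit of the ATP synthase, ATP5B, was the most abundant, at a mean of 881 CPM per kb over the 4 libraries. The γ subunit ATP5C1 and the α subunit ATP5A1, which alternates with β in the head, stood lower, at 318 and 211 CPM per kb. In complex III the core protein UQCRC1 stood at 175 CPM per kb, the Rieske iron-sulfur protein UQCRFS1 at 74.2 and the heme protein CYC1 at 54.5. In complex IV COX6B1 stood highest, at 164 CPM per kb, and COX5B lowest, at 31.4. In complex II the flavoprotein SDHA stood at 24.0 CPM per kb, and the iron-sulfur subunit SDHB at 96.4. These orders depend on the transcript chosen. With the length of the canonical transcript instead, UQCRB moved from 241 to 17.0 CPM per kb and CYCS from 526 to 94.3. ATP5G3 moved from 517 to 168 and ATP5A1 from 211 to 71.1, while ATP5B, UQCRC1 and COX6B1 kept their values. COX7B (21.2) and COX6C (27.1) then stood below COX5B, which kept 31.4. The small subunits ATP5I (3.43 CPM per kb) and ATP5E (3.69) stood lowest among the tested subunits of the same enzyme. ATP5D (10.1) came next, followed by ATP5G2 (21.9). ATP5I and ATP5E overlap exons of MYL5 and TUBB1, and reads of overlapping genes may have been lost or shared in counting. ATP5D overlaps no coding gene by the annotation. ATP5H, ATP5J, ATP5J2, ATP5L and ATP5O overlap other coding genes and stood at 35.0 to 80.9 CPM per kb. The part of overlap in these levels was not tested.

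**Figure D1:**
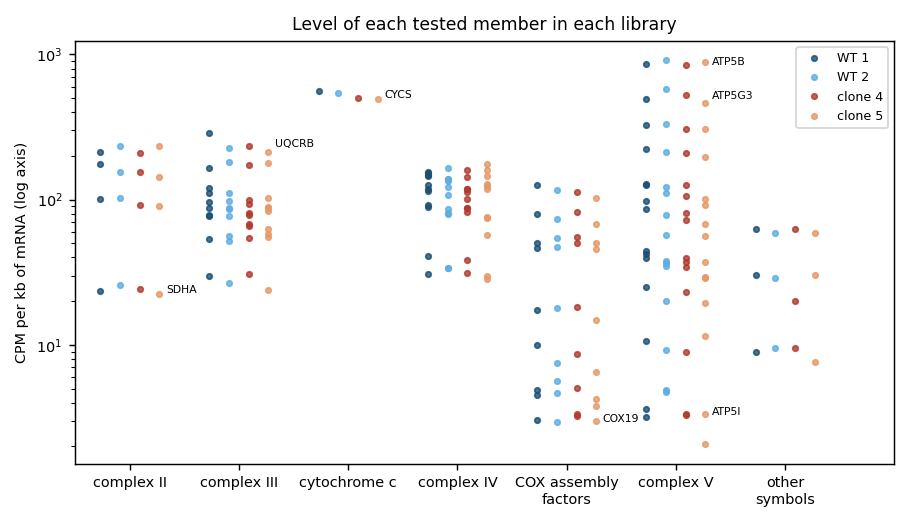
CPM per kb of mRNA on a log axis for each of the 53 tested genes, by group, with 1 column of points for each library. ATP5B stands at the top in all 4 libraries and ATP5I and ATP5E at the bottom of complex V, and the 4 columns of each group cover nearly the same range.

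The c-ring of the ATP synthase is built from 1 protein that 3 genes encode with different targeting sequences. ATP5G3 took 76.6% to 80.4% of their summed level per kb, ATP5G1 16.8% to 19.6% and ATP5G2 2.77% to 3.85%. With canonical lengths ATP5G3 took 54.4% to 60.2% and ATP5G1 32.3% to 35.7%. ATP5G3 ranked first in every library under both lengths. UQCRH, the hinge protein of complex III, had 1926 to 2734 counts and its near-identical copy UQCRHL 930 to 1296, and reads may have been split between the copies.

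Whether the WT pair and the NOCT-KO pair differed was asked for all 53 tested genes. None passed the threshold: 0 of 53 had an adjusted p under 0.05 when edgeR's quasi-likelihood p-values were adjusted by Benjamini-Hochberg over 13143 genes, where 0 genes in all passed (0%). DESeq2 called 0 of the 53 and 42 of all genes (0.32%), and limma-voom called 0 of both. At an unadjusted p under 0.05 there were 2 (3.77%), COX18 and COX5A, against 4.21% of all tested genes. The fitted log2 values (WT over NOCT-KO) were nonetheless mostly above 0. They were positive for 44 of the 53 genes and negative for 9, with a median of 0.12, or 1.09-fold, where 49.9% of all tested genes were positive and their median was -0.0003. With 1 library left out, between 36 and 42 were positive and between 11 and 17 negative, the fewest positive without clone 5. The WT libraries also differed from each other in the same sense: WT 1 over WT 2 was positive for 33 of the 53 and negative for 20, with a median of 0.07 beside -0.005 over all genes. In complex IV that median was 0.09 and in complex V 0.10, close to those of WT over NOCT-KO given next. Complex III had 0.09 as well. The sign was the other way in complex II, at -0.08 (1 gene positive, 3 negative), and among the COX assembly factors, at -0.03 (4 and 5). In bulk RNA a lower share of cells that express a gene and less RNA per cell cannot be told apart.

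**Figure D2:**
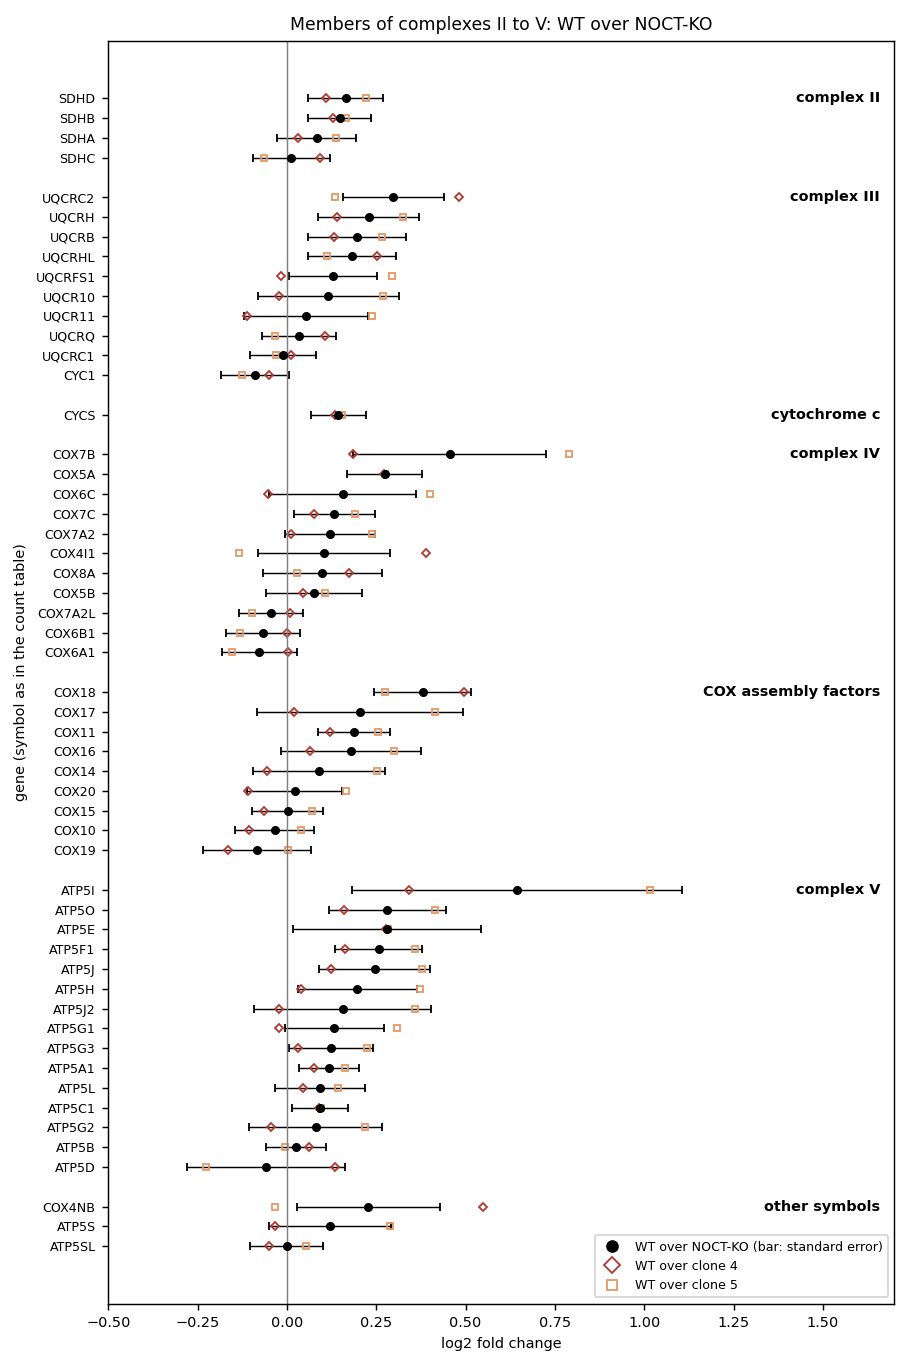
Log2 fold change, WT over NOCT-KO, of each tested gene (black, with its standard error from edgeR) and of WT over each clone (open symbols), by group. Points to the right of 0 are higher in WT; 44 of the 53 black points lie there, and none passed the adjusted threshold.

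The slope was shallow in each group. The median log2 fold change was 0.12 in complex II (4 genes positive, 0 negative), 0.12 in complex III (8 and 2), 0.10 in complex IV (8 and 3), 0.09 among the COX assembly factors (7 and 2) and 0.13 in complex V (14 and 1). Summed over all subunit genes, the level was 6021 and 6026 CPM in WT 1 and WT 2, 5698 in clone 4 and 5638 in clone 5. Both clones thus stood below both WT libraries in the sum, in which abundant genes weigh most. Singly, 11 of the 41 tested subunit genes (26.8%) had both WT libraries above both clones, beside 17.9% of all tested genes. Complex II also kept the clones apart from WT, with 402 and 402 CPM in WT and 375 and 370 CPM in the clones, as did complex III, with 1089 and 1038 CPM against 1005 and 971 CPM. Complex V summed to 3094 and 3195 CPM in WT and 3011 and 2952 CPM in the clones. In complex IV the groups overlapped: 892 and 859 CPM in WT, 817 in clone 4 and 860 in clone 5.

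Gene by gene, both WT libraries lay above both clones for 13 of the 53 genes (24.5%), where the same held for 17.9% of all tested genes. Both lay below for 1 (1.89%), where 16.4% of all genes did. The first 13 were SDHB and SDHD, UQCRC2 and UQCRHL, CYCS, COX5A, COX11 and COX18, and ATP5A1, ATP5C1, ATP5F1, ATP5I and ATP5O. The single gene below was CYC1.

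CYCS, the mobile carrier that moves electrons from complex III to complex IV and also triggers the apoptosome, was among the tightest. It stood at 544 and 532 CPM in WT 1 and WT 2, 490 in clone 4 and 484 in clone 5. Its 4 values fell into separate ranges by genotype, yet the log2 fold change was 0.14 (SE 0.078, adjusted p = 0.971 from edgeR). CYCS has 42 pseudogenes by name, whose transcripts or reads may be shared with it.

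COX5A, a nuclear subunit that binds the matrix side of complex IV, stood at 86.9 and 76.8 CPM in WT and 67.8 and 67.6 CPM in the clones. The clones were alike and both below WT. The log2 fold change was 0.27 (SE 0.11, unadjusted p = 0.0443, adjusted p = 0.971 from edgeR). Its neighbour in the enzyme, COX5B, stood at 21.2 and 23.3 CPM in WT and 21.5 and 20.6 CPM in the clones, where WT 1 lay between the clones.

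In complex II, SDHB stood at 102 and 104 CPM in WT and 93.9 and 91.7 CPM in clones 4 and 5 (log2 fold change 0.15, SE 0.088). The membrane anchor SDHD stood at 152 and 134 CPM in WT and 133 and 123 CPM in the clones (0.16, SE 0.11). SDHA had 50.2 and 55.8 CPM in WT and 51.9 and 48.2 CPM in the clones, so its groups overlapped. All 3 had an adjusted p of 0.971 or above from edgeR.

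In complex V the peripheral stalk held several of the larger fitted values of WT over NOCT-KO. ATP5O, the subunit that holds the stalk to the catalytic head, stood at 31.8 and 26.3 CPM in WT and 26.0 and 21.8 CPM in the clones (log2 fold change 0.28, SE 0.16). ATP5F1, the b subunit of the peripheral stalk, stood at 85.4 and 75.4 CPM in WT and 71.9 and 62.7 CPM in the clones (0.26, SE 0.12). Another stalk subunit, ATP5J, stood at 57.3 and 46.1 CPM in WT and 47.4 and 39.8 CPM in the clones (0.25, SE 0.16), so WT 2 lay between the clones. ATP5B, by contrast, stood at 1516 and 1611 CPM in WT and 1499 and 1571 CPM in the clones (0.03, SE 0.084). The ε subunit ATP5E, which belongs to the head and not to the stalk, had 0.28 as well (SE 0.26), at 5.98 and 9.24 CPM in WT and 6.27 and 6.25 CPM in the clones. Of the other head subunits, with γ and δ counted there, ATP5A1 had 0.12 (SE 0.084), ATP5C1 0.09 (SE 0.078) and ATP5D -0.06 (SE 0.22). ATP5A1 and ATP5C1 had both WT libraries above both clones, as the stalk genes ATP5O and ATP5F1 did. ATP5H, also of the stalk, had 0.20 (SE 0.17), with clone 4 at 20.5 CPM and WT 2 at 20.4 CPM. The largest fitted value of all 53 genes, 0.64 for ATP5I, came with an SE of 0.46 and levels of 0.63 to 1.44 CPM. Adjusted p was at least 0.971 for each of these, and the difference between stalk and core was not tested.

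Each clone was then set against the WT pair, since single-cell lines of an aneuploid cancer line can differ from each other. In a fit with 3 groups the lone library of a clone is assumed to vary like the WT pair. Against clone 4, 4 of the 53 genes passed the threshold (7.55%), beside 11.4% of all tested genes, and all 4 were higher in WT, as were 6.02% of all genes. They were COX4NB, UQCRC2, COX4I1 and COX18. Against clone 5, 1 of 53 passed (1.89%), beside 3.51% of all genes, and it was COX7B, also higher in WT, as were 1.73% of all genes. Between clone 4 and clone 5, 2 passed (3.77%), beside 13.1% of all genes: COX4I1 and COX4NB, both lower in clone 4, as were 7.38% of all genes. With both directions counted, the share of these genes that passed was below the background in each comparison. For genes higher in WT alone, the share was slightly above the background against each clone, from few genes.

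**Figure D3:**
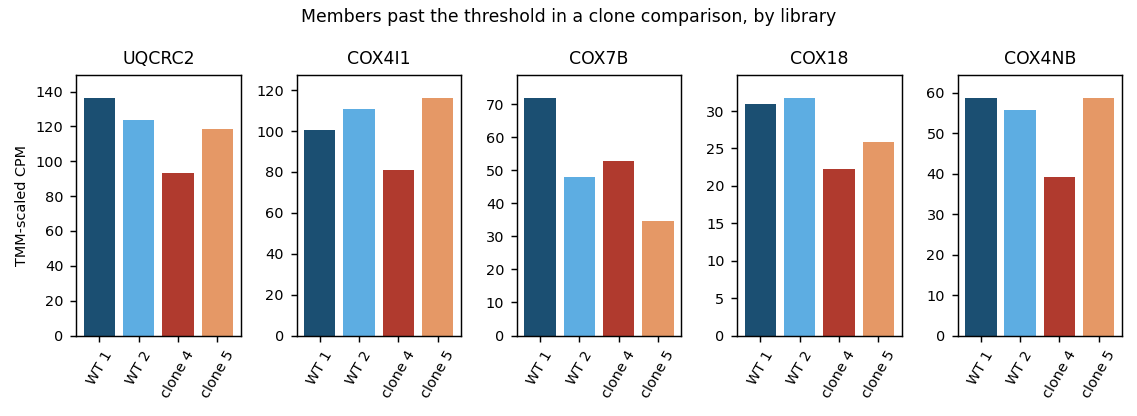
TMM-scaled CPM in each of the 4 libraries for the 5 genes past the threshold in a comparison of clones, with axes from 0. Clone 4 is the lowest bar for UQCRC2, COX4I1, COX18 and COX4NB, and clone 5 for COX7B, where WT 1 stands well above WT 2.

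COX4I1 encodes the ubiquitous subunit 4, an early piece of complex IV assembly through which ATP regulates the enzyme. COX4NB and COX4I1 lie head to head on chromosome 16, COX4NB from 85805364 to 85833214 on the minus strand and COX4I1 from 85832239 to 85840674 on the plus strand (hg19, GENCODE annotation lifted to that build), and 4 bases of their exons overlap. In the RefSeq annotation of GRCh38.p14 their start sites are 151 bases apart, so the promoter window of COX4I1, shown because both of its genes were low in the same clone, holds the start of each. The window runs from 250 bases before the COX4I1 start to 30 bases after it (chr16:85799445-85799724, plus strand, GRCh38.p14), and capitals mark the ETS-type motif CCGGAAG of GABPA, here on the opposite strand.
COX4I1: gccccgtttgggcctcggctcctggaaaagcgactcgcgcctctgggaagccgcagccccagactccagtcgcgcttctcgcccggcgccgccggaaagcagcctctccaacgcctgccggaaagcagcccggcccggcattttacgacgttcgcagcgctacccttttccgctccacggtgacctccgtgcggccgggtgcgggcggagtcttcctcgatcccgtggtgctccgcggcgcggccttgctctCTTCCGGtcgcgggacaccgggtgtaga
The 3 motifs searched on both strands, from 250 bases before to 50 after the start, were CGCATGCG, the core of the NRF1 motif, the GABPA motif CCGGAAG and the YY1 motif AAGATGGC. GABPA, NRF1 and YY1 are factors known to act on nuclear respiratory genes. Of the 57 subunit and assembly genes 44 had such a window in RefSeq, and 19 of them (43.2%) held CCGGAAG beside 12.2% of 27305 genes, 8 (18.2%) held CGCATGCG beside 2.46%, and 6 (13.6%) held AAGATGGC beside 3.52%. The 27305 are all genes with a window, not only those tested here, so these shares are not set against genes of similar expression. A match is a run of letters and not a shown binding site.

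COX4I1 stood at 101 and 111 CPM in WT, 80.7 in clone 4 and 116 in clone 5. Clone 4 was below the other 3 libraries, and clone 5 was above them. The log2 fold change of WT over clone 4 was 0.39 (SE 0.10, adjusted p = 0.0237 from edgeR) and that of clone 4 over clone 5 -0.52 (adjusted p = 0.00733). COX4NB showed the same low library, at 58.6 and 55.8 CPM in WT, 39.1 in clone 4 and 58.6 in clone 5. Its log2 fold change was 0.55 for WT over clone 4 (SE 0.11, adjusted p = 0.00569) and -0.58 for clone 4 over clone 5 (adjusted p = 0.00708).

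UQCRC2, a core protein of complex III, lies on the other arm of chromosome 16, from 21964609 to 21994981 on the plus strand (hg19). It stood at 136 and 124 CPM in WT, 93.0 in clone 4 and 118 in clone 5. Both clones were below WT, and clone 4 was the lower. The log2 fold change was 0.48 for WT over clone 4 (SE 0.10, adjusted p = 0.00644 from edgeR) and 0.13 for WT over clone 5 (adjusted p = 0.584). The clones did not differ past the threshold (log2 clone 4 over clone 5 -0.35, adjusted p = 0.0634).

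These 3 are the tested genes of the set on chromosome 16, and that chromosome was low as a whole in clone 4. Over its 580 tested genes the median log2 fold change of WT over clone 4 was 0.44, of WT over clone 5 -0.14, and of clone 4 over clone 5 -0.57. Genes within 5 Mb had a median of 0.45 around COX4I1 (76 genes), 0.44 around COX4NB and 0.39 around UQCRC2 (50 genes) for WT over clone 4. COX4I1 thus lay 0.06 below its neighbours, COX4NB 0.11 above and UQCRC2 0.09 above, each by less than the SE of its fold change. Without the chromosome 16 genes, a count added after the data were seen, 1 of 50 passed in WT over clone 4, COX18, and 0 in clone 4 over clone 5 by edgeR, DESeq2 or limma-voom (4 at an unadjusted p under 0.05). COX20, a chaperone of the COX2 subunit, sits in another shifted stretch: the 34 genes around it on chromosome 1 had a median of -0.29 for WT over clone 4, and COX20 itself -0.11 (adjusted p = 0.637). DNA copy number was not measured, and its part in these values was not tested.

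**Figure D4:**
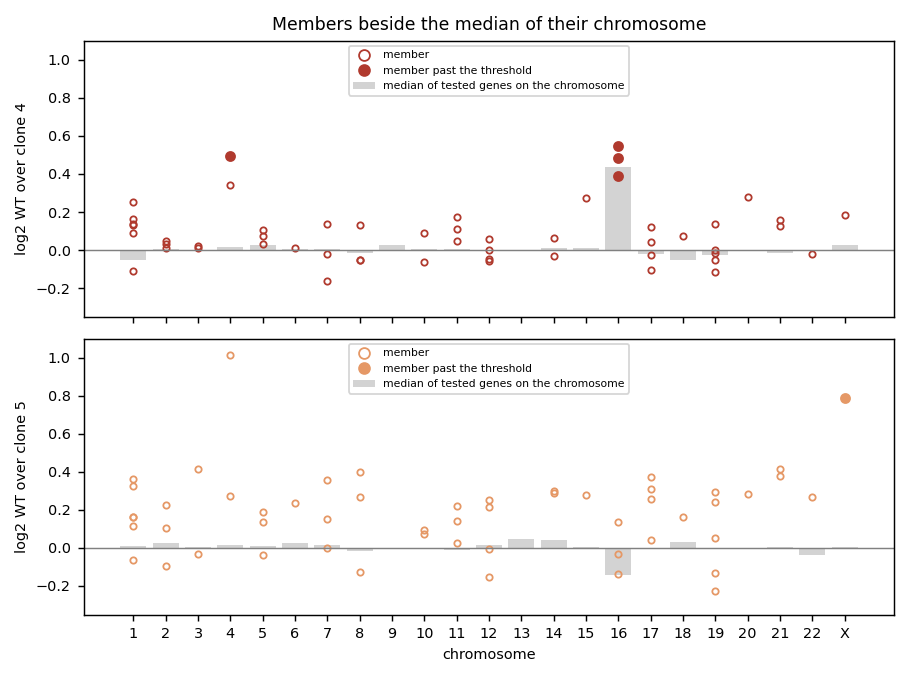
Log2 fold change of WT over clone 4 (top) and over clone 5 (bottom) for the tested genes of complexes II to V by chromosome (circles, filled where past the threshold), over grey bars for the median of all tested genes on that chromosome. The bar of chromosome 16 reaches 0.44 at the top and -0.14 at the bottom, and COX18 on chromosome 4 and COX7B on chromosome X stand clear of flat bars.

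COX18 differed in that respect. It encodes the inner membrane insertase that exports the tail of the mitochondrially encoded COX2 subunit, and lies on chromosome 4 from 73918079 to 73935472 on the minus strand (hg19). The 31 genes within 5 Mb had a median of 0.01 for WT over clone 4. COX18 stood at 31.0 and 31.7 CPM in WT, 22.2 in clone 4 and 25.9 in clone 5. WT 1 and WT 2 nearly coincided and both clones lay below them. The log2 fold change was 0.49 for WT over clone 4 (SE 0.14, adjusted p = 0.0316 from edgeR), 0.27 for WT over clone 5 (adjusted p = 0.355), and 0.38 over both clones (SE 0.14, unadjusted p = 0.0347, adjusted p = 0.971). The call against clone 4 ended with upper-quartile scaling (adjusted p = 0.0544), without a filter (0.129), in DESeq2 (0.117) and in a fit without clone 5 (0.051). Other genes with both clones below both WT libraries were mixed: the windows of UQCRC2, CYCS and COX5A held none of the motifs searched. Those of SDHB, SDHD, ATP5A1, ATP5C1, ATP5F1, ATP5I and ATP5O did hold a motif, and that of COX7B did not. A link between motifs and levels was not tested. The promoter window of COX18 (chr4:73069687-73069966, minus strand, GRCh38.p14), shown because its gene lay below WT in both clones, is 1 of the 8 with the NRF1 core, in capitals.
COX18: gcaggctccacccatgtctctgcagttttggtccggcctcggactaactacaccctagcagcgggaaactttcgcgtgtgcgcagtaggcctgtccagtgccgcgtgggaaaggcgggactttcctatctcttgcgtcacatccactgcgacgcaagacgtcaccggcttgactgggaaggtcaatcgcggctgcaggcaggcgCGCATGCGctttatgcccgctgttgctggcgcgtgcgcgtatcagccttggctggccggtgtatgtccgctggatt

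COX7B, a small subunit of complex IV needed for its assembly, lies on chromosome X from 77154937 to 77162873 on the plus strand (hg19). It stood at 71.8 and 48.0 CPM in WT 1 and WT 2, 52.7 in clone 4 and 34.7 in clone 5. Clone 5 was the lowest, but the WT pair differed by 0.58 on the log2 scale and clone 4 lay between its libraries. The log2 fold change of WT over clone 5 was 0.79 (SE 0.18, adjusted p = 0.0257 from edgeR), while the 22 genes within 5 Mb had a median of -0.03. It was 1.05 with WT 1 as the only WT library and 0.47 with WT 2. The call ended with upper-quartile scaling (adjusted p = 0.153), without a filter (0.426), in DESeq2 (0.773) and in a fit without clone 4 (0.0632).

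The spread within the WT pair had a pattern of its own among these genes. Among the 51 that averaged 5 CPM or more, the 31 whose mRNA is under 1000 bases had a median log2 ratio of WT 1 over WT 2 of 0.15, and the 20 longer ones -0.02. Across these 51 genes the ratio had a Pearson r of -0.45 with log2 mRNA length, as a description across genes of the same 2 libraries. Over 9715 genes at that level r was -0.10. COX7B, ATP5J2, UQCR10 and COX8A had the highest ratios, at 0.58, 0.59, 0.47 and 0.43, and their mRNAs are all short by median transcript length. By the canonical transcript COX7B has 2444 bases in place of 605, and UQCRB 8459 in place of 595. The split and r were not computed with canonical lengths. In WT over NOCT-KO r was -0.03, with medians of 0.12 and 0.10 for short and long genes. Over the 9715 genes r was -0.12 in that comparison, with medians of 0.04 for short and -0.02 for long genes, so short genes in general also had the higher values in WT. The split by length was added after the data were seen.

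**Figure D5:**
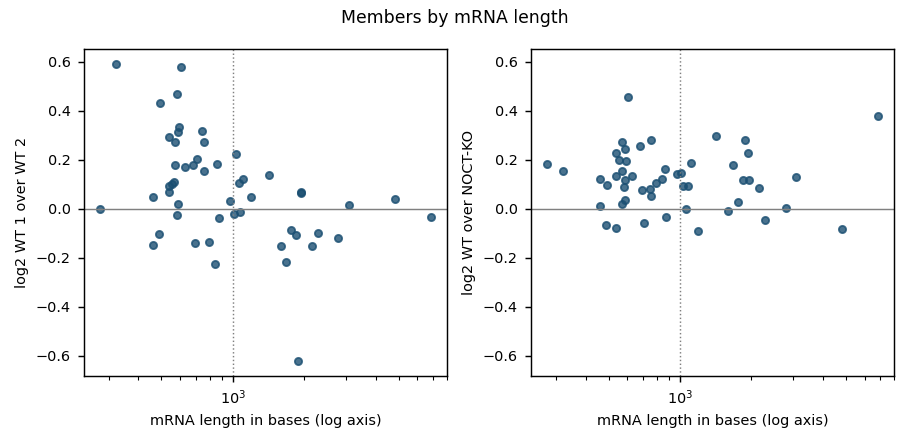
Log2 WT 1 over WT 2 (left) and log2 WT over NOCT-KO (right) against mRNA length on a log axis for 51 genes of complexes II to V that averaged 5 CPM or more. The left panel slopes down from short to long genes, and the right panel does not; the dotted line marks 1000 bases.

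The lean was larger against clone 5 than against clone 4, in comparisons that share the WT libraries. In WT over clone 5 the median log2 fold change was 0.19 (42 genes positive, 11 negative), and in WT over clone 4 it was 0.06 (38 and 15), with all-gene medians of 0.004 and 0.01. Complex V had a median of 0.28 against clone 5 and 0.08 against clone 4. At an unadjusted p under 0.05, 13 of the 53 genes (24.5%) were counted in WT over clone 5 beside 15.6% of all genes, and 5 (9.43%) in WT over clone 4 beside 23.7%. The COX assembly factors were positive for all 9 against clone 5, from 0.002 to 0.41, and for 4 of 9 against clone 4. Without clone 4 the median of WT over NOCT-KO was 0.19, and without clone 5 it was 0.05. The Rieske protein UQCRFS1 shows the asymmetry: 240 and 238 CPM in WT, 242 in clone 4 and 195 in clone 5, with a log2 fold change of clone 4 over clone 5 of 0.31 (SE 0.10, adjusted p = 0.0586 from edgeR), which missed the threshold.

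A few genes leaned the other way. CYC1, which carries the heme c of complex III, stood at 63.9 and 61.8 CPM in WT and 65.1 and 68.6 CPM in the clones (log2 fold change -0.09, SE 0.096). COX6A1 stood at 79.4 and 74.4 CPM in WT and 76.8 and 85.6 CPM in the clones, and COX6B1 at 75.3 and 80.9 CPM in WT and 78.1 and 85.6 CPM in the clones. For both of these clone 5 was the highest library and clone 4 lay between the WT pair. The interval of 1 SE around each of these folds reached 0.

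The wider pathway was read from lists of genes that build or control these enzymes. In WT over NOCT-KO edgeR, DESeq2 and limma-voom each called 0 of the 158 tested genes of these lists, with 3 (1.9%) at an unadjusted p under 0.05 in edgeR beside 4.21% of all genes. The complex I list holds NDUFA4, which despite its name is now counted as a subunit of complex IV (log2 0.34, adjusted p = 0.971 from edgeR). The 38 tested genes of that list were positive for 33 and negative for 5 (median 0.14), and the 74 genes of the mitochondrial ribosome for 62 and 12 (median 0.12). Both medians stood close to that of complexes II to V. Assembly factors of complex III were positive for 6 of 6, those of complex V and its accessory subunits for 6 of 6 (median 0.13), those of complex IV outside the COX names for 14 of 19 (median 0.10), and those of complex II for 3 of 4. Regulators of nuclear respiratory genes were balanced, 5 positive and 6 negative, with a median of -0.01; PPARGC1A was too low to test.

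In the clone comparisons edgeR called 11 of the 158 genes (6.96%) in WT over clone 4, 8 higher and 3 lower in WT, 1 (0.633%) in WT over clone 5 and 9 (5.7%) in clone 4 over clone 5, beside 11.4%, 3.51% and 13.1% of all genes. NDUFS1, the iron-sulfur subunit at the electron entry of complex I, was lower in clone 4 than in WT (log2 WT over clone 4 0.78, adjusted p = 0.000143) and than in clone 5 (-0.87, adjusted p = 0.000123). NDUFB1 (0.61), NDUFAB1 (0.44) and NDUFA4 (0.36) of the complex I list, and MRPL28 (0.69), MRPS21 (0.44) and MRPL1 (0.37) of the mitochondrial ribosome, were also lower in clone 4 than in WT; NDUFAB1 and MRPL28 lie on chromosome 16. COA6, listed as C1orf31, a copper chaperone of complex IV on chromosome 1, was higher in clone 4 than in WT (log2 WT over clone 4 -0.40, adjusted p = 0.0312 from edgeR) and lower in clone 5 (log2 WT over clone 5 0.48, adjusted p = 0.0318). TFB2M, the mitochondrial transcription factor, was higher in clone 4 (-0.36, adjusted p = 0.0285), and PPRC1, a PGC-1-related coactivator, was lower there (0.41, adjusted p = 0.00886). The complex IV list also held PNKD (-1.04, adjusted p = 0.000111), a gene named for a movement disorder whose place in that list is uncertain. Between the clones, PET117, PPARGC1B and MRPL20 were higher in clone 4 as well (log2 clone 4 over clone 5 0.95, 0.40 and 0.54). TFB2M lies on chromosome 1, as does COX20, whose 34 neighbours had a median of -0.29 for WT over clone 4. No window centred on TFB2M was read, and the part of a regional shift in its values was not tested.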

How the data were processed

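Poly-A+ RNA from 2 WT and 2 NOCT-KO libraries of A549 was sequenced on an Illumina HiSeq. The deposited file is a table of gene counts without normalization. For its making the paper and the submitters' processing notes name hg19, TopHat2 and HTSeq; for versions, annotation and strand setting the entry is: not given in the sources used here. Antisense and overlapping loci may therefore hold each other's reads. In each library 99.1% to 99.2% of nonzero counts were even. Of 23368 lines, 28 with a date in place of a symbol (0.274% of counts) were left out. All columns were used.

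The tests ran in edgeR 4.0.16, limma 3.58.1 and DESeq2 1.42.0 (R 4.3.3). Tables and plots were made with numpy 2.4.6, pandas 2.3.3 and matplotlib 3.10.9 (Python 3.11.15). Genes were filtered (filterByExpr, minimum count 10, minimum total 15), TMM-scaled and fitted with the quasi-likelihood model; p-values were adjusted by Benjamini-Hochberg over 13143 genes and read at 0.05. WT against NOCT-KO had 2 residual degrees of freedom (biological coefficient of variation 19.7%). The fit with WT, clone 4 and clone 5 as 3 groups had 1 (8.33%), so it does not measure variation within a clone. The standard error is the absolute log2 fold change over the square root of F. Scripts were tested on simulated data.

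Coordinates and mRNA lengths came from GENCODE v44 lifted to hg19, to which all 61 genes matched by current or older symbol. Promoter windows came from RefSeq (GRCh38.p14) by symbol. Values in every library were given for the genes with the smallest p of each group, those past the threshold, CYCS, isoform families and genes below the filter, with a few others chosen after their values were seen. The genes, lists and tests were chosen with earlier results of these data known, so lists are described by counts and medians and not tested. Alternatives covered scaling, filter, halved counts, test, summed counts and each library left out. The newer edgeR quasi-likelihood method, the date lines, the count without chromosome 16, the length split and canonical lengths were added after the data were seen.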

Additional observations from a re-analysis of the deposited data

Results flagged for a closer look

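COX4I1 differed between the 2 clone libraries by a test of the difference itself: the log2 fold change of clone 4 over clone 5 was -0.52 (adjusted p = 0.00733 from edgeR), with 80.7 CPM in the former and 116 in the latter. The same held for COX4NB, which shares a promoter region with it, at -0.58 (adjusted p = 0.00708 from edgeR), with 39.1 and 58.6 CPM in those clones. The median of all 580 tested genes of chromosome 16 was -0.57 in the same comparison, and each clone is 1 library.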

How the results depend on the processing

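No paired analysis was possible because the WT and NOCT-KO libraries share no replicate numbers. With 2 libraries a group and 1 a clone, no spread within a clone was measured. The count of genes past the threshold was 0 in WT over NOCT-KO, and 0 to 3 with 1 library left out, the 3 being COX4I1, COX4NB and UQCRC2 without clone 5, where 8.77% of all genes passed. It fell to 0 without a filter in the other 3 comparisons. For WT over clone 5 it was also 0 with upper-quartile scaling, in DESeq2 and with clone 5 and the WT pair alone. For clone 4 over clone 5 it was 5 with halved counts (with COX7B, UQCRC2 and UQCRFS1), beside 15.2% of all genes, and 4 with the newer edgeR method, beside 13.6%, and 0 off chromosome 16, where WT over clone 4 kept 1. The cause was not tested. From summed counts, which are not scaled for depth and put the median of all genes at 0.11, the medians of WT over NOCT-KO were 0.24 over all genes of the set and over subunits, 0.23 for complex II, 0.24 for III, 0.20 for IV, 0.21 for COX assembly factors and 0.25 for V.

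With 1 library left out, the medians ranged from 0.053 to 0.189 over the set, 0.069 to 0.189 over subunits, 0.070 to 0.149 for complex II, 0.043 to 0.185 for III, 0.038 to 0.144 for IV, -0.063 to 0.249 for COX assembly factors and 0.068 to 0.280 for V. Of the 53 genes, 26 took the other sign in WT over NOCT-KO with some library left out: 10 without WT 1, 6 without WT 2, 8 without clone 4 and 14 without clone 5, among the last UQCRFS1, UQCR11, COX14, COX20 and COX6C. Examples with their ranges are ATP5G1 (-0.031 to 0.31), ATP5G2 (-0.090 to 0.23), ATP5S (-0.040 to 0.29), ATP5SL (-0.058 to 0.051), COX4I1 (-0.14 to 0.38), COX4NB (-0.036 to 0.54), COX7A2L (-0.099 to 0.0038) and COX8A (-0.13 to 0.30). Values at 0 also took the other sign. ATP5SL in WT over NOCT-KO was 0.020 with upper-quartile scaling, 0.0013 without a filter, 0.0017 with halved counts, 0.0010 in limma-voom and 1.9e-06 with the newer method. In WT over clone 4, COX6A1 was -0.0036 with RLE scaling and in DESeq2 and -0.0045 with that clone and the WT pair alone, and COX6B1 was -0.0064 with RLE scaling and in DESeq2, -0.0011 in limma-voom, -1.8e-05 with the newer method, -5.3e-05 with date lines and -0.0074 with that clone and the WT pair alone. COX5A in clone 4 over clone 5 was -6.5e-06 without a filter. Of 140 values of single genes that carry no test, 23 changed sign, the largest of them at a log2 value of 0.185 in the fit reported.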
